A study of Homo sapiens with 8 samples.

Results

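The genes described here are the cadherin superfamily as gene symbols name it: the cadherins and cadherin-related genes, the protocadherins, the desmosomal cadherins, the CELSR, FAT and DCHS giants, and the calsyntenins. Members were chosen by symbol alone, with no measured value, and 85 were listed in at least 1 of 3 expression tables that together list 16126 genes. The rule matches 109 symbols of the RefSeq annotation, so 24 were listed in none of the tables. The C4-2B table listed 30 members among 13969 genes, 77 of 14809 genes in the CWR-R1 table and 72 of 14800 in the VCaP table were members, and 23 members were in all of them.

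Polyadenylated RNA of prostate cancer cell lines was sequenced as enzalutamide-sensitive and enzalutamide-resistant (ENZR) forms, enzalutamide being a drug that blocks the androgen receptor. C4-2B and C4-2BENZR, both carrying luciferase and GFP transgenes, gave 2 libraries each. CWR-R1, CWR-R1ENZR, VCaP and VCaPENZR gave 1 library each. Each resistant form is a single line, and the sources used here do not give drug doses or say whether drug was present at harvest. Values are reads scaled by library size as the authors deposited them, not corrected for gene length, so they are compared between libraries and not between genes. The tables were normalized separately and each lists a part of the genes by a rule not given in the sources used here. A gene missing from a table is called not listed, not 0; CDH6 is listed in C4-2B with no read in any of its libraries.

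Classical cadherins join neighbouring cells by binding the same cadherin on the other cell outside and catenins and actin inside. Desmosomal cadherins do the same at desmosomes, which are anchored to keratin filaments. Clustered protocadherins are expressed from tandem arrays in which each first exon has its own promoter and is spliced, in the alpha and gamma arrays, to shared last exons; they are best known for giving neurons individual surface identities. Because the copies are near-identical in places and share exons, reads of 1 clustered member can be credited to another, and every value of a single clustered member is uncertain in that way.

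The libraries held 14503586 to 20248655 reads in listed genes, and 3 reads correspond to a level of 0.142 to 0.202. The 5 markers of prostate luminal epithelium were listed in every library with a summed level of 1831 to 5089. Of 6 fibroblast markers 2 or 3 were listed, with a sum of 13.4 to 66.4 and with COL1A2, COL3A1 and DCN not listed, and of 5 blood markers 1 or 2 were listed, with a sum of 0.135 to 5.29 and with PTPRC, CD3E and HBB not listed. Of 5 endothelial markers 1 or 2 were listed, with a sum of 3.13 to 27.5 and with PECAM1, TEK and CDH5 not listed. The fibroblast sum was 17.7 and 13.4 in C4-2B against 54.9 and 50.6 in C4-2BENZR, most of it COL1A1, with LUM at 0 in both C4-2B libraries, and it was 33.8 in CWR-R1 against 66.4 in CWR-R1ENZR. The endothelial marker VWF was at 5.73 in CWR-R1 against 26.5 in CWR-R1ENZR and at 3.13 in VCaP against 18.6 in the library labelled VCaPENZR, and the epithelial marker EPCAM at 483 against 66.8 and at 327 against 60.1. Their part in the members' differences was not tested. The library labelled VCaPENZR stood apart from VCaP: over all genes in both tables its log2(value + 1) correlated with CWR-R1ENZR at Pearson r = 0.939 (13910 genes) and with VCaP at 0.721 (14800 genes). Genes are not independent replicates, and these coefficients only describe the libraries. Its comparison with VCaP is therefore a comparison of the libraries so labelled. The CWR-R1 and VCaP comparisons have no replicates and carry no p-value, and a difference of at least 2-fold there means a log2 difference of value + 1 of at least 1 among genes that reached a level of 5 in either library.

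In C4-2B, where limma could test the difference, 22 of the 30 listed members passed the filter of a level of at least 1 in at least 2 libraries. Of these, 7 were higher in C4-2BENZR, 7 were lower and 8 were not called at an adjusted p below 0.05. The background was of the same order: 56.8% of all 13280 genes tested were called (27.8% higher, 29.0% lower), and the members' median log2 difference was -0.03 against -0.00 over all genes. Of the 22 tested, 4 (CLSTN3, PCDH7, PCDH19 and PCDH20) were called and differed by at least 2-fold on the log2(value + 1) scale. The same held for 9.92% of all genes tested. The groups did not overlap for 17 of the 22 members, against 77.4% of all genes. PCDH19, PCDHB2 and PCDHGB5 passed the filter only through C4-2BENZR, and PCDH20 only through C4-2B, so these 4 had to differ in order to be tested. The count of 7 higher was 3 without C4-2BENZR replicate 1 and 4 without C4-2BENZR replicate 2, where PCDH19, PCDHB2 and PCDHGB5 were no longer tested. The p-values measure the spread between 2 libraries per line.

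In CWR-R1, 53 of 77 members were measured, of which 23 were at least 2-fold higher in CWR-R1ENZR (background 9.79% of 12462 genes), 6 at least 2-fold lower (background 10.3%) and 24 under 2-fold, so 29 differed either way (background 20.1%). In VCaP, 48 of 72 members were measured, of which 18 were at least 2-fold higher in the library labelled VCaPENZR (background 21.1% of 12502 genes), 15 at least 2-fold lower (background 22.0%) and 15 under 2-fold, so 33 differed either way (background 43.1%). Of the measured members, 15 in each table reached a level of 5 only in the resistant library, and 7 in CWR-R1 and 13 in VCaP only in the sensitive one. Over all listed members without that filter, 26 of 77 in CWR-R1 had a log2 difference of at least 1 and 9 of at most -1, against 10.8% and 10.6% of all listed genes. In VCaP these numbers were 23 and 22 of 72, against 21.9% and 22.7%. Members thus differed in both directions in every table, in near-equal number in C4-2B and VCaP and more often higher in CWR-R1ENZR. In CWR-R1 this excess lay in the clustered protocadherins, of which 20 of 31 measured were at least 2-fold higher and 1 lower. Of 22 members measured outside the arrays, 3 were higher and 5 lower. Over all listed, 39 of 46 clustered members and 11 of 31 others were above in CWR-R1ENZR, against 50.2% of all listed genes. The classes are described in turn.

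CDH1, which encodes E-cadherin, the adhesion molecule of epithelial junctions, was lower in C4-2BENZR. Its level was 829 and 836 in the C4-2B libraries and 471 and 489 in the C4-2BENZR libraries. The resistant libraries were the lower pair, without overlap, at 480 ± 12.3 against 833 ± 5.16 (SD, n = 2 each). The difference was -0.79 on the log2 scale (SE 0.05, limma adjusted p = 6.19e-10), a 1.73-fold lower mean. In CWR-R1 the CDH1 level was 387 and in CWR-R1ENZR 356. In VCaP it was 371 and in the library labelled VCaPENZR 510. Both differences were under 2-fold, 1.09-fold lower and 1.37-fold higher in the resistant library.

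CDH3 (P-cadherin), whose gene lies next to CDH1 in the RefSeq order on chromosome 16, was not called in C4-2B. It had levels of 35.5 and 35.7 in C4-2B and 38.9 and 40.8 in C4-2BENZR (log2 difference 0.16, limma adjusted p = 0.129). CDH3 was at 29.6 in CWR-R1 against 31.7 in CWR-R1ENZR, and at 17.6 in VCaP and 29.6 in the library labelled VCaPENZR, under 2-fold in both tables. CDH2 (N-cadherin), a cadherin of neural and mesenchymal cells, was not listed in C4-2B. Its level was 35.6 in CWR-R1 against 1.81 in CWR-R1ENZR, 19.7-fold lower (95% interval 13.4 to 30.2, counting error only, as for all intervals here). In VCaP it was at 3.53 and in the library labelled VCaPENZR at 0.774, both under the level of 5. CDH11 was not listed in any table.

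Several other cadherins had few or no reads in the resistant library of CWR-R1 or VCaP. CDH17, the intestinal cadherin, was at 24.2 in CWR-R1 against no read in CWR-R1ENZR, at least 120-fold lower against the floor of 3 reads in that library. CDH12 was at 7.42 and at 0, at least 36.9-fold lower, and CDH23, a cadherin of sensory hair-cell links, at 7.83 and 3.02. In VCaP, CDH26 was at 38.5 and had 2 reads in the library labelled VCaPENZR (323-fold lower, interval 89.1 to 2674), and CDH7 was at 26.6 and 0.834 (31.9-fold lower, interval 18.8 to 58.8). No cadherin with a measured level was at least 2-fold higher in CWR-R1ENZR (background 9.79%). There, 4 of the 7 measured were at least 2-fold lower (background 10.3%). These 4 reached a level of 5 only in CWR-R1, so the count gives no support. Of the 10 listed without that filter, 1 had a log2 difference of at least 1 and 6 of at most -1. All listed genes had 10.8% and 10.6%. The 1 higher was CDH15, at 0.405 in CWR-R1 (6 reads) against 4.36 in CWR-R1ENZR (65 reads). In the library labelled VCaPENZR, CDH24 was the 1 of 5 measured that was at least 2-fold higher (background 21.1%), at 76.9 against 10.2. In C4-2B, CDH24 had levels of 22.6 and 19.6 against 35.6 and 36.7 in C4-2BENZR and rose (log2 difference 0.75, limma adjusted p = 1.30e-05), whereas in CWR-R1 it was at 77.2 and 82.0. CDH15, a muscle cadherin, was called lower in C4-2BENZR at levels near the filter (1.60 and 3.47 against 0.803 and 1.10, limma adjusted p = 0.0143). Leaving out replicate 1 of C4-2BENZR (limma adjusted p = 0.0715) or replicate 2 of C4-2B (limma adjusted p = 0.255) ended the CDH15 call.

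Among the desmosomal cadherins, DSG2 fell in C4-2BENZR, and the desmocollins were at few or no reads in the library labelled VCaPENZR. DSG2, the desmoglein of simple epithelia, was at 423 and 427 in C4-2B and at 324 and 309 in C4-2BENZR, and fell by 0.43 on the log2 scale (limma adjusted p = 1.68e-06). DSC2, a desmocollin, was not called there (58.2 and 55.1 against 51.6 and 58.4, limma adjusted p = 0.657). In VCaP, DSC2 was at 128 and in the library labelled VCaPENZR at 1.25, 102-fold lower (interval 66.8 to 166). DSC3 was at 88.3 and DSC1 at 6.38 in VCaP, and neither had a read in the library labelled VCaPENZR, at least 494-fold lower for DSC3 and 35.7-fold lower for DSC1. The desmocollins DSC3, DSC2 and DSC1 are consecutive on chromosome 18 in the RefSeq order and directly follow CDH2. DSG2, which lies 4 genes beyond DSC1, was at 279 in VCaP and 375 in the library labelled VCaPENZR, so the desmoglein was present in both. In CWR-R1, only DSG2 and DSC2 of this class were listed, DSG2 at 217 in CWR-R1 against 276 in CWR-R1ENZR, and DSC2 at 4.52 and 2.48 in the same order.

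**Figure D1:**
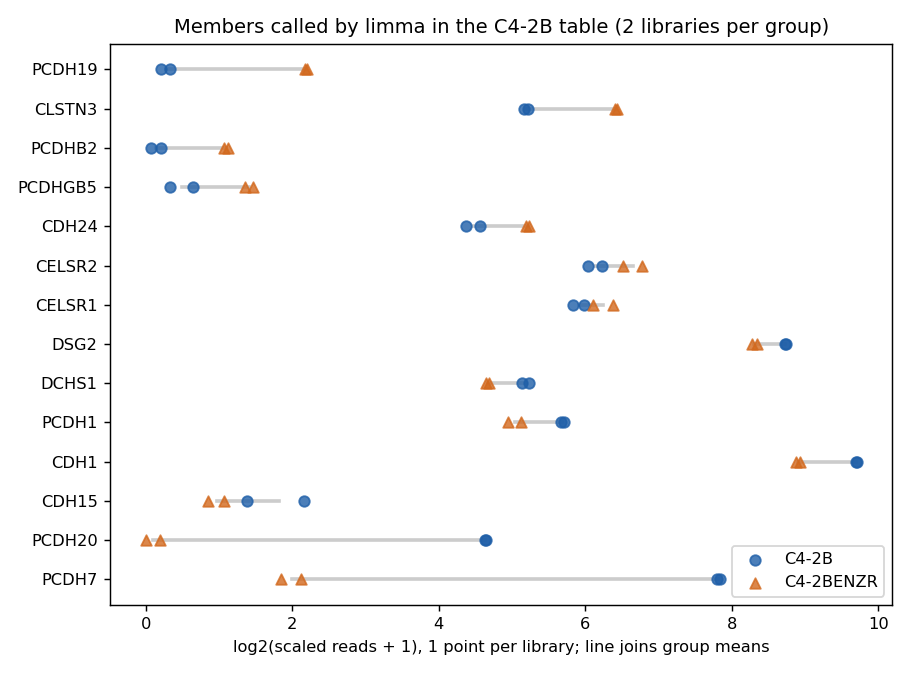
Levels of the 14 members called by limma in the C4-2B table, as log2(scaled reads + 1), 1 point per library (circles C4-2B, triangles C4-2BENZR), with a line joining the group means. PCDH7 and PCDH20 have the longest lines, and CDH1 lies lower in both C4-2BENZR libraries.

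Among the non-clustered protocadherins, PCDH7 and PCDH20 were far lower in C4-2BENZR than in C4-2B. PCDH7, a protocadherin of the delta family, was at 228 and 222 in the C4-2B libraries and at 2.60 and 3.36 in the C4-2BENZR libraries. The groups did not overlap, the mean was 75.5-fold lower in C4-2BENZR, and the log2 difference was -5.83 (SE 0.11, limma adjusted p = 2.81e-16). PCDH7 was at 57.6 in CWR-R1 against 54.3 in CWR-R1ENZR. In VCaP it had no read and in the library labelled VCaPENZR it was at 15.2, at least 89.2-fold higher. PCDH20, another non-clustered protocadherin, was at 23.8 and 23.9 in C4-2B and had 3 reads and no read in the C4-2BENZR libraries (log2 difference -4.54, SE 0.19, limma adjusted p = 6.77e-12). By summed reads the ratio was 305-fold (interval 104 to 1484). PCDH20 passed the filter only through C4-2B and so had to differ in order to be tested. PCDH20 was at 41.8 in CWR-R1 against 32.6 in CWR-R1ENZR, and at 0.398 in VCaP and 15.2 in the library labelled VCaPENZR, 38.1-fold higher (interval 18.2 to 95.7). Within their tables, both genes were thus lower in C4-2BENZR, within 2-fold in CWR-R1ENZR and higher in the library labelled VCaPENZR. In bulk libraries, fewer cells with a transcript and less transcript per cell cannot be told apart.

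PCDH1, which lies beyond the clustered arrays on chromosome 5, was lower in C4-2BENZR and higher in CWR-R1ENZR than in their sensitive forms. It was at 49.7 and 51.4 in C4-2B and at 29.8 and 33.8 in C4-2BENZR (log2 difference -0.66, limma adjusted p = 1.09e-05). In CWR-R1 it was at 13.6 and in CWR-R1ENZR at 65.9, 4.83-fold higher (interval 4.15 to 5.65). In VCaP it was at 156 and in the library labelled VCaPENZR at 102. PCDH10 was at 15.3 in CWR-R1 against 2.81 in CWR-R1ENZR, 5.44-fold lower (interval 3.90 to 7.75). PCDH19 was at 0.155 and 0.259 in C4-2B and 3.50 and 3.59 in C4-2BENZR (log2 difference 1.91, limma adjusted p = 1.95e-06). It passed the filter only through C4-2BENZR and so had to differ in order to be tested. Its level was under 5 in every library that listed it.

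**Figure D2:**
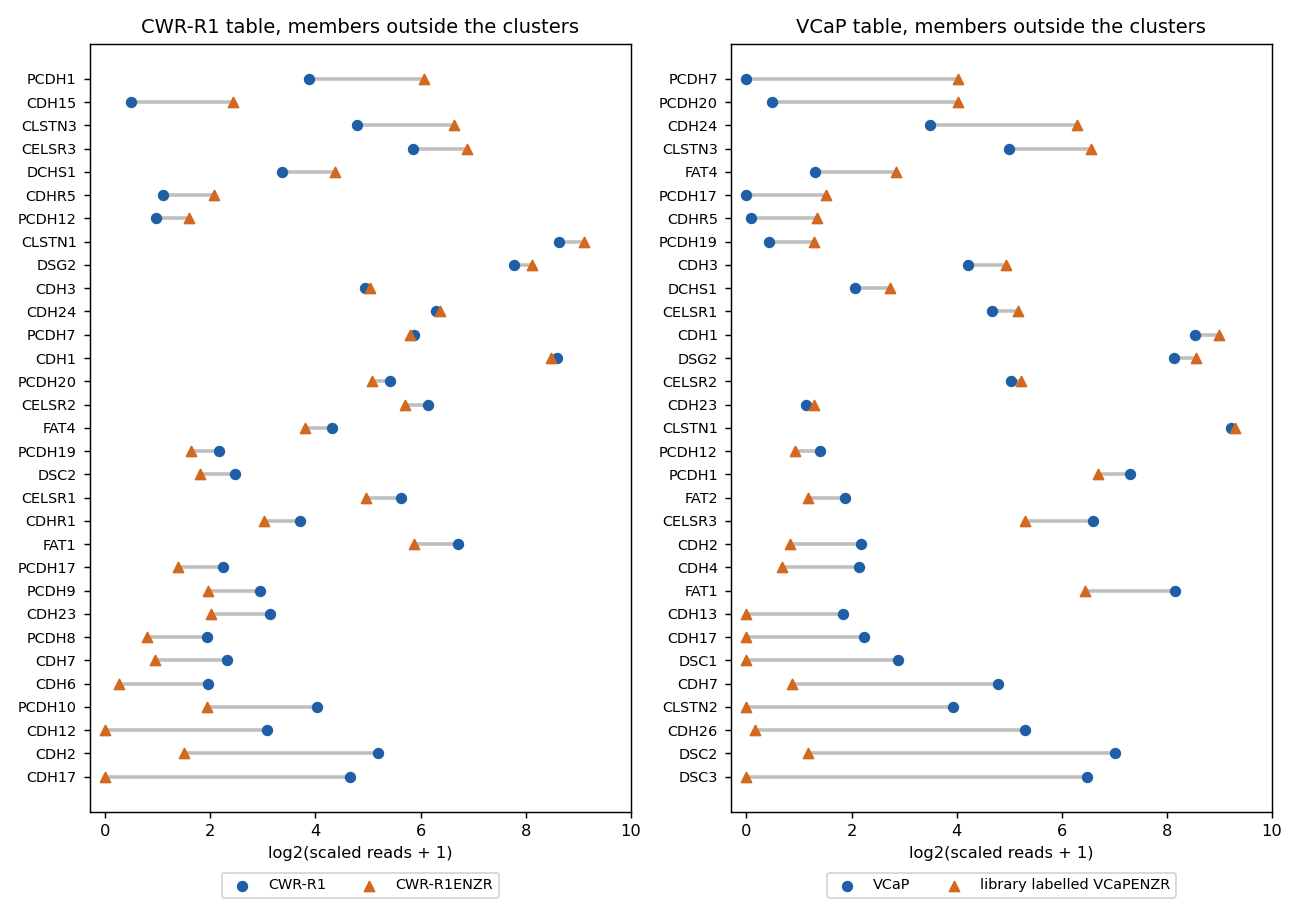
Levels of all listed members outside the clustered arrays in the CWR-R1 table (left) and the VCaP table (right), as log2(scaled reads + 1), ordered by the difference between the libraries (circles sensitive, triangles resistant form, 1 library each). The desmocollins, CDH26, CLSTN2 and CDH7 form the lower end on the right, and CDH17, CDH2 and CDH12 on the left.

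The CELSR genes encode receptors of planar cell polarity, the alignment of cells within a sheet. In C4-2B, CELSR2 was at 74.0 and 64.8 against 109 and 90.6 in C4-2BENZR and rose (log2 difference 0.51, limma adjusted p = 8.30e-05). CELSR1 was at 62.3 and 56.0 against 82.3 and 67.8 and rose as well (0.34, limma adjusted p = 0.00395), while CELSR3 was not called (limma adjusted p = 0.591). Leaving out replicate 1 of C4-2BENZR ended the CELSR1 call (limma adjusted p = 0.104). CELSR3 was at 56.6 in CWR-R1 against 116 in CWR-R1ENZR, and at 96.1 in VCaP and 38.2 in the library labelled VCaPENZR. CELSR1 and CELSR2 stayed under 2-fold in both of those tables.

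FAT and DCHS proteins are giant cadherins that bind each other between cells and act on growth control and polarity. FAT1 was at 59.7 and 47.9 in C4-2B and 50.9 and 43.1 in C4-2BENZR, with overlap, and was not called (limma adjusted p = 0.131). It was called lower when replicate 1 of C4-2BENZR (limma adjusted p = 0.0163) or replicate 2 of C4-2B (limma adjusted p = 0.00441) was left out. It was at 103 in CWR-R1 against 57.5 in CWR-R1ENZR, and at 283 in VCaP and 85.9 in the library labelled VCaPENZR, 3.30-fold lower (interval 3.11 to 3.50). DCHS1 fell in C4-2BENZR, from 36.5 and 34.3 to 24.8 and 24.0 (log2 difference -0.52, limma adjusted p = 0.000277). In CWR-R1, DCHS1 was at 9.31 and in CWR-R1ENZR at 19.6, a ratio of 2.10 that lies just inside 2-fold on the log2(value + 1) scale. FAT4 was at 1.48 in VCaP and 6.19 in the library labelled VCaPENZR, 4.18-fold higher (interval 2.70 to 6.70).

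CLSTN3, a calsyntenin of the secretory pathway and of synapses, was higher in the resistant library or libraries of every table. It was at 36.3 and 34.7 in C4-2B and at 83.5 and 85.8 in C4-2BENZR, 2.38-fold higher and without overlap (log2 difference 1.23, SE 0.07, limma adjusted p = 7.72e-10). It was at 26.7 in CWR-R1 against 98.4 in CWR-R1ENZR, 3.68-fold higher (interval 3.30 to 4.13), and at 31.0 in VCaP and 93.1 in the library labelled VCaPENZR, a ratio with an interval of 2.72 to 3.31. CLSTN1 was within 2-fold in every table. It was at 420 and 408 in C4-2B and 420 and 402 in C4-2BENZR (log2 difference -0.01, limma adjusted p = 0.866), at 396 in CWR-R1 against 549 in CWR-R1ENZR, and at 593 in VCaP and 628 in the library labelled VCaPENZR. CLSTN2 was at 14.2 in VCaP and had no read in the library labelled VCaPENZR, at least 79.4-fold lower.

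The clustered protocadherins, 47 of the 85 members, were few and low in the C4-2B table. It listed 8 of them (2 beta, 6 gamma and no alpha), with a summed level of 5.47 and 5.12 in the C4-2B libraries and 10.8 and 8.11 in the C4-2BENZR libraries, and none reached 5 in a library. PCDHB2 was at 0.155 and 0.0518 in C4-2B against 1.18 and 1.10 in C4-2BENZR (limma adjusted p = 0.00322). PCDHGB5 was at 0.567 and 0.259 against 1.75 and 1.56 (limma adjusted p = 0.00370). Both passed the filter only through C4-2BENZR and so had to differ in order to be tested. There were 46 listed in the CWR-R1 table and 41 in the VCaP table. In CWR-R1ENZR their summed level was 631 against 286 in CWR-R1, and in the library labelled VCaPENZR it was 405 against 254 in VCaP. Since the tables were normalized separately, these sums are compared within a table only. Of 4 neural markers, 2 or 3 were listed, STMN2 in no table. Their summed level was 10.6 and 8.59 in the C4-2B libraries and 61.9 and 60.2 in the C4-2BENZR libraries, 66.9 in CWR-R1 against 37.1 in CWR-R1ENZR, and 47.2 in VCaP against 27.7 in the library labelled VCaPENZR. Most of each sum was MAP2, at 10.1 and 8.49 in the C4-2B libraries and 60.9 and 59.5 in the C4-2BENZR libraries. The part of the neural markers in the levels of the clustered protocadherins was not tested.

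**Figure D3:**
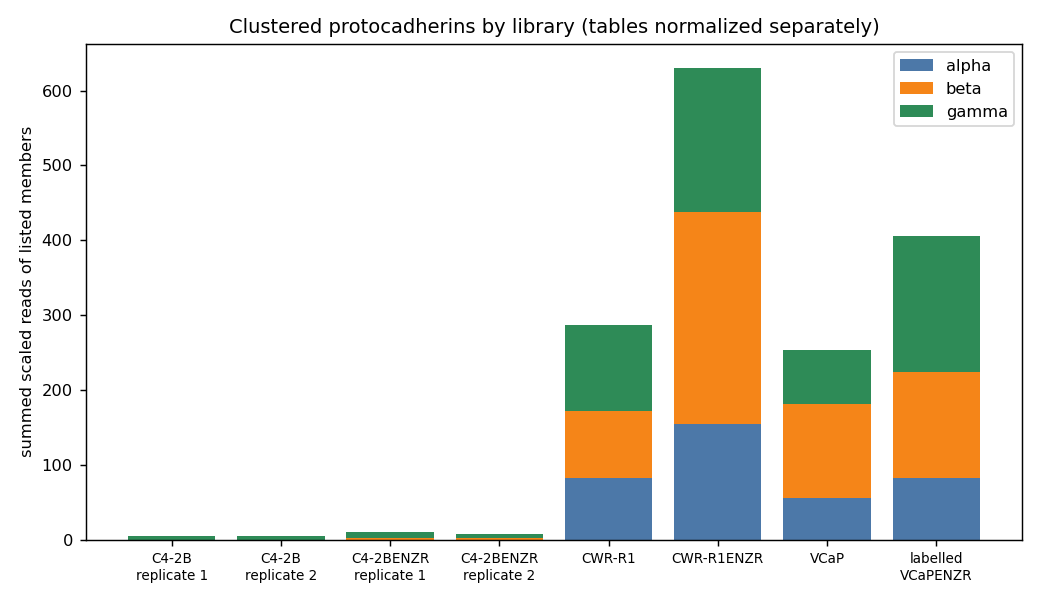
Summed levels (scaled reads) of the listed clustered protocadherins in each of the 8 libraries, stacked by alpha, beta and gamma array, with tables normalized separately. The 4 C4-2B and C4-2BENZR libraries lie between 5.12 and 10.8 and the others between 254 and 631.

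In CWR-R1ENZR the beta array was higher nearly throughout. Of 15 listed beta members, 14 were higher in CWR-R1ENZR than in CWR-R1 and 1, PCDHB6, was lower, against 50.2% of all listed genes higher. The log2 difference was at least 1 for 11 of the 15, with a median of 1.59 over all 15 listed, against 0.00 over all listed genes. Of the 12 measured, 6 reached a level of 5 only in CWR-R1ENZR. The summed beta level was 89.7 in CWR-R1 against 283 in CWR-R1ENZR. PCDHB2 was at 23.7 in CWR-R1 against 52.5 in CWR-R1ENZR, and the ratios of the 11 ran from 2.21 (PCDHB2) to 7.45 (PCDHB9, 1.48 and 11.1). PCDHB16 was at 2.63 and 18.0, PCDHB14 at 2.70 and 18.2, and PCDHB10 at 4.59 and 26.5. PCDHB8 was at 7.02 and 30.8, PCDHB13 at 9.38 and 30.3, PCDHB15 at 5.13 and 24.2 and PCDHB11 at 7.42 and 23.6, each higher in CWR-R1ENZR. PCDHB7, at 1.15 and 7.77, and PCDHB12, at 1.48 and 6.17, had the lowest levels of the 11 in CWR-R1ENZR. PCDHB5 was at 15.7 and 25.0, under 2-fold.

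The alpha and gamma arrays were less even. Alpha members summed to 82.4 in CWR-R1 against 155 in CWR-R1ENZR, and 10 of 13 listed were higher, with a median log2 difference of 0.58. PCDHA10 was at 8.97 and 33.6, PCDHA8 at 8.64 and 24.5, PCDHA4 at 12.3 and 33.0 and PCDHA2 at 4.66 and 11.8, whereas PCDHA13 was at 18.8 and 16.1. Gamma members summed to 114 and 193, and 15 of 18 listed were higher, with a median of 0.54. Of all listed genes, 50.2% were higher. A level of 5 was reached only in CWR-R1ENZR by 3 of 8 alpha and 6 of 11 gamma members measured. It was reached only in CWR-R1 by 1 gamma member, PCDHGA11. PCDHGB1 was at 1.48 in CWR-R1 against 27.0 in CWR-R1ENZR, 18.2-fold higher (interval 11.9 to 29.4), PCDHGB7 at 2.97 and 23.0, PCDHGB4 at 4.59 and 16.9, PCDHGA4 at 1.08 and 7.64, and PCDHGA1 at 1.75 and 5.96. PCDHGA11 went against them, at 18.6 in CWR-R1 against 3.28 in CWR-R1ENZR, 5.65-fold lower (interval 4.16 to 7.82), and was the only clustered member at least 2-fold lower in that table.

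In VCaP, members of the same array differed in opposite directions. Of 41 clustered members listed, 25 were higher in the library labelled VCaPENZR and 16 lower, and of 27 measured 13 were at least 2-fold higher and 7 at least 2-fold lower (background 21.1% and 22.0%). Of the 27, 11 reached a level of 5 only in the library labelled VCaPENZR and 7 only in VCaP, so these counts give no support. Many pairs lay near 0 in one library. PCDHA4 was at 0.455 in VCaP and 26.8 in the library labelled VCaPENZR, PCDHA10 had 1 read and was at 22.5 (395-fold higher, interval 70.5 to 15656), and PCDHA8 had no read and was at 6.85 (at least 40.1-fold higher). PCDHA11, at 21.5 in VCaP, was at 0.357, and PCDHA12, at 24.0, was at 0.655. PCDHA13 was at 8.03 and 11.7, under 2-fold.

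The beta and gamma arrays also held members that differed in opposite directions. PCDHB13 was at 2.39 in VCaP and 21.3 in the library labelled VCaPENZR and PCDHB15 at 1.99 and 18.2, while PCDHB3 was at 16.0 and 1.25 and PCDHB4 at 5.12 and 0.179 (3 reads, 28.7-fold lower, interval 9.51 to 142). PCDHB2 was at 8.08 and 22.4 and PCDHB16 at 13.0 and 4.47. PCDHGA10 was at 0.569 and 34.9, PCDHGB1 at 1.08 and 35.1, PCDHGB7 at 0.285 and 20.3 and PCDHGA7 at 0.569 and 17.5. PCDHGB2 was at 12.2 and 0.179 (3 reads, 68.5-fold lower, interval 23.1 to 335) and PCDHGB4 at 12.1 and 0.357. PCDHA2, PCDHGA9 and PCDHGC3 were the other clustered members at least 2-fold higher, at 0.512 and 5.30, 4.67 and 14.1, and 14.2 and 31.6. Beta members summed to 127 in VCaP and 142 in the library labelled VCaPENZR.

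**Figure D4:**
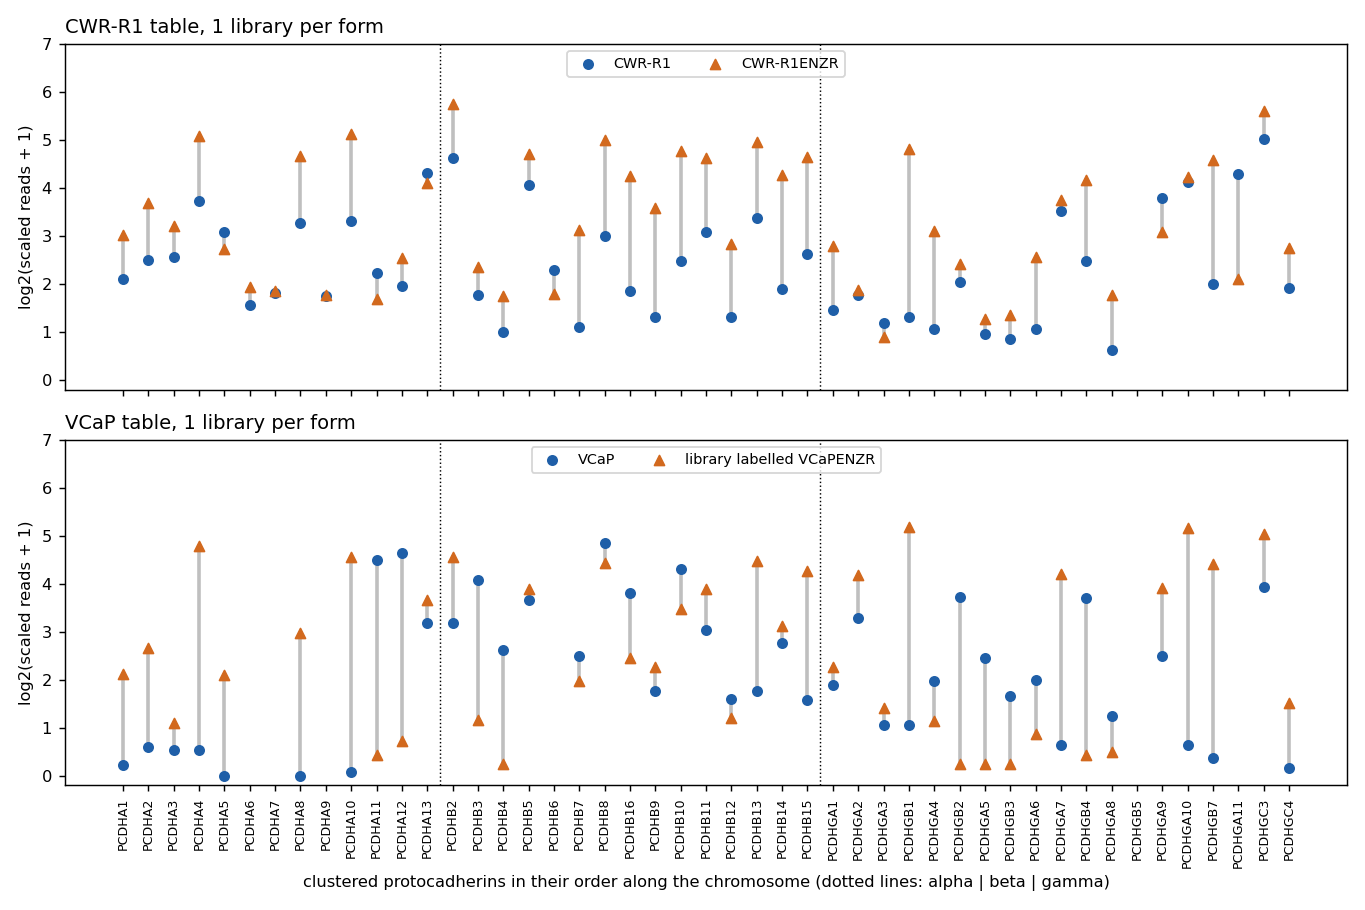
Levels of the clustered protocadherins as log2(scaled reads + 1) in their order along chromosome 5, for the CWR-R1 table (top) and the VCaP table (bottom), 1 library per form (circles sensitive, triangles resistant), with no point where a gene was not listed. Of 15 beta members 14 lie higher in CWR-R1ENZR at the top, and members that differ in opposite directions lie within each array at the bottom.

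The levels of clustered members in the library labelled VCaPENZR correlated more closely with those in the CWR-R1 libraries than with those in VCaP. Over the 41 clustered members in both tables, Pearson's r of log2(value + 1) was 0.794 with CWR-R1ENZR, 0.691 with CWR-R1 and -0.12 with VCaP (Spearman's rho 0.814, 0.665 and -0.16). These are descriptions over members that share libraries, read assignment and arrays. Over the other members r was 0.972 with CWR-R1ENZR (24 members) and 0.614 with VCaP (31 members). The value with VCaP also covers members not listed in the CWR-R1 table, such as CDH26, DSC1 and DSC3. These coefficients thus rest on different sets of members. By absolute log2 difference, 40 of 65 members (61.5%) were nearer to CWR-R1ENZR than to VCaP, against 71.2% of all 13910 genes in both tables. Among clustered members this held for 9 of 10 alpha, 6 of 14 beta and 10 of 17 gamma members. The library labelled VCaPENZR differed by at least 2-fold from CWR-R1ENZR in 27 of the 65 members (41.5%), against 14.9% of all genes in both tables, and from VCaP in 39 (60%), against 41.9%. Of the 41 clustered members, 23 were at least 2-fold from CWR-R1ENZR and 26 from VCaP. In the library labelled VCaPENZR 35 of them were lower than in CWR-R1ENZR, against 8566 of all 13910 genes. These 2 libraries are in tables normalized separately, so a difference of scale can enter every count against CWR-R1ENZR.

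**Figure D5:**
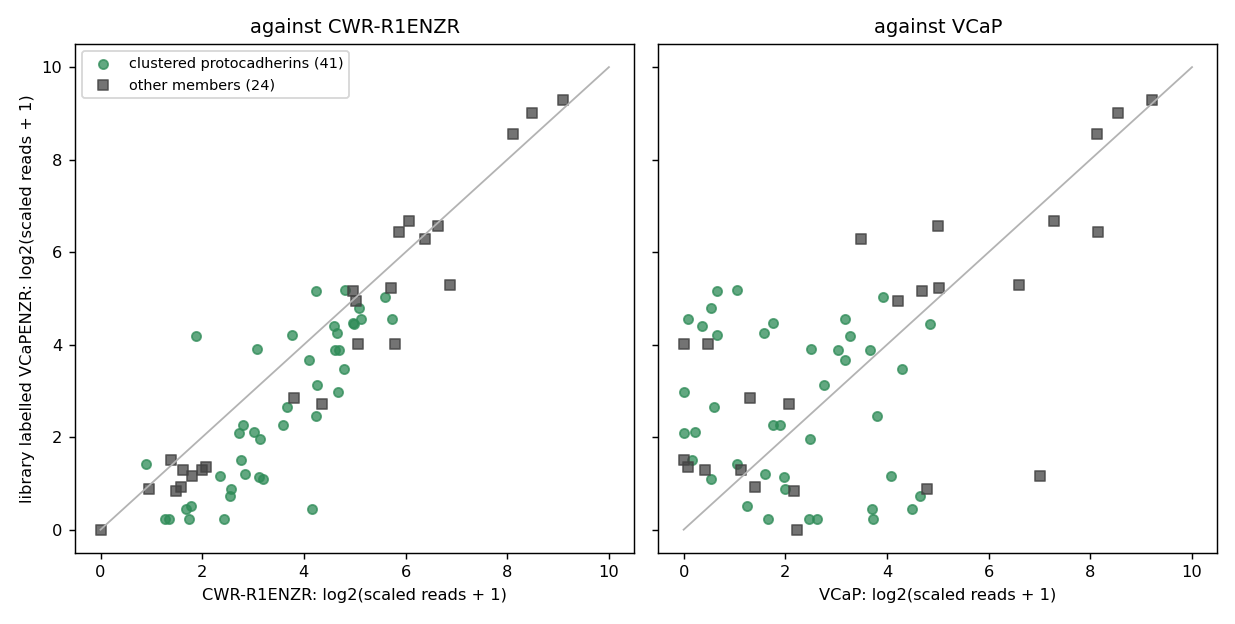
Level of each member in the library labelled VCaPENZR against its level in CWR-R1ENZR (left) and in VCaP (right), as log2(scaled reads + 1), for the 65 members in both tables (circles 41 clustered, squares 24 others), with the line of equal values. On the left, 35 of the 41 clustered members lie below the line and 23 are at least 2-fold from it. Of all 13910 genes in both tables, not drawn, 8566 were lower in the library labelled VCaPENZR than in CWR-R1ENZR. On the right, 26 of the 41 are at least 2-fold from the line, on both sides.

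The promoters of these members show what the arrays share in sequence. RefSeq promoters (build GRCh38.p14, the 250 bases before each start) were available for 68 of the 85 members. The array motifs were chosen after seeing these promoters, contain CGCT in common, and were searched on both strands. TGTCGCT was found in 10 of 11 alpha members, GGTGGCGCT in 12 of 13 beta members and GCCGCTGT in 10 of 19 gamma members, against 1.32%, 0.410% and 1.23% of all 35116 promoters. The windows below are shown because they hold the motif of their array, in capitals, and belong to members far apart between VCaP and the library labelled VCaPENZR. The promoters of PCDHGB2 and PCDHGB7, which were as far apart, do not hold the gamma motif and are not shown. The alpha members PCDHA4, PCDHA8 and PCDHA10 were higher and PCDHA11 and PCDHA12 lower in the library labelled VCaPENZR.
PCDHA4, chr5:140806966-140807025, plus strand: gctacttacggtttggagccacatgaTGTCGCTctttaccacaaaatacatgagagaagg
PCDHA8, chr5:140841117-140841176, plus strand: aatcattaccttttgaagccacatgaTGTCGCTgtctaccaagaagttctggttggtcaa
PCDHA10, chr5:140855828-140855887, plus strand: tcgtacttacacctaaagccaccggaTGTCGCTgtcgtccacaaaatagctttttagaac
PCDHA11, chr5:140868870-140868929, plus strand: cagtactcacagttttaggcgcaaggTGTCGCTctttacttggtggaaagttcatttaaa
PCDHA12, chr5:140875231-140875290, plus strand: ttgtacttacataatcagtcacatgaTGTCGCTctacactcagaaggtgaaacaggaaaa

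In the beta array, PCDHB13 and PCDHB15 were higher and PCDHB3 and PCDHB4 lower in the library labelled VCaPENZR.
PCDHB13, chr5:141213850-141213909, plus strand: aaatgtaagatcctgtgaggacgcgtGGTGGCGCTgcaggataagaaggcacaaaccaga
PCDHB15, chr5:141245299-141245358, plus strand: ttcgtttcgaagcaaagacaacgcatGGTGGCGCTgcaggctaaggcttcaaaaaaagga
PCDHB3, chr5:141100378-141100437, plus strand: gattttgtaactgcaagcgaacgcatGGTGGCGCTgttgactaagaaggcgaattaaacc
PCDHB4, chr5:141121708-141121767, plus strand: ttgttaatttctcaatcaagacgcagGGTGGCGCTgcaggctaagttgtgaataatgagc

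In the gamma array, PCDHGA7, PCDHGA10 and PCDHGB1 were higher and PCDHGB4 lower in that library.
PCDHGA7, chr5:141382637-141382696, plus strand: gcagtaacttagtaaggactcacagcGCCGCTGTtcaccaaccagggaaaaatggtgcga
PCDHGA10, chr5:141412919-141412978, plus strand: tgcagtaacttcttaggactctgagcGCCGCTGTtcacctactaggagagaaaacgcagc
PCDHGB1, chr5:141350013-141350072, plus strand: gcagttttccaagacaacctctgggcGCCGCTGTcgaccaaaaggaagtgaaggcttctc
PCDHGB4, chr5:141387605-141387664, plus strand: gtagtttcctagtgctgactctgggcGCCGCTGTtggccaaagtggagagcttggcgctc

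The motif started at a median of 54.5 bases before the start in alpha, 66.5 in beta and 65.5 in gamma members that hold it on the plus strand. CACCTG, the E-box read by repressors of CDH1, or its reverse complement CAGGTG was found in no alpha or beta promoter, in 2 of 19 gamma promoters and in 6 of 25 promoters of members outside the arrays, against 17.5% of all promoters. The PCDH7 promoter held none, and CDH1 and PCDH20 had no promoter available to search. A match describes these letters in this window and is not a binding site.

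Genes that work with the cadherins were read from a list of 59 partner genes, 56 of which were listed in some table. In C4-2B, 14 of 45 tested were higher and 15 lower (background 27.8% and 29.0%), in CWR-R1 4 of 45 measured were at least 2-fold higher and 5 lower (background 9.79% and 10.3%), and in VCaP 10 of 48 were higher and 10 lower (background 21.1% and 22.0%). These counts lie near the background. CTNNB1 (beta-catenin), which links CDH1 to the cytoskeleton, rose in C4-2BENZR (374 and 393 against 524 and 544, log2 difference 0.48, limma adjusted p = 5.02e-07), and CTNNA1, CTNND1 and JUP, the alpha, delta and gamma catenins, fell by 0.26, 0.14 and 0.26 (limma adjusted p = 0.000231, 0.0215 and 0.000167). JUP was at 257 in CWR-R1 against 812 in CWR-R1ENZR.

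Of the transcriptional repressors of CDH1, SNAI2 was at 2.42 and 2.69 in C4-2B and 8.22 and 9.67 in C4-2BENZR (log2 difference 1.48, limma adjusted p = 3.55e-06) and SNAI1 rose too (0.56, limma adjusted p = 0.0208). TCF3 and TCF4 were not called, and ZEB1, ZEB2, TWIST1 and TWIST2 were not listed in that table. ZEB1 was at 19.9 in CWR-R1 against no read in CWR-R1ENZR, at least 99.0-fold lower, where CDH2 was lower too and CDH1 was within 2-fold. TCF4 was at 38.3 in CWR-R1 against 13.3 in CWR-R1ENZR (2.87-fold lower, interval 2.44 to 3.39), and TWIST1 and TCF3 were under 2-fold. TWIST1 had no read in VCaP and was at 50.7 in the library labelled VCaPENZR, at least 297-fold higher. In these libraries TCF4 had 3 reads and was at 8.40 (49.2-fold higher, interval 16.5 to 241). SNAI2 had 5 reads and was at 5.66 (19.9-fold higher, interval 8.22 to 62.6), and TCF3 was under 2-fold. CDH1 was at 371 and 510. The part of these repressors in the CDH1 and CDH2 levels was not tested. ELF3, an epithelial activator, was at 159 in CWR-R1 against 857 in CWR-R1ENZR.

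Among partners of the desmosome, PKP1 (plakophilin 1) was at 398 in VCaP and had 1 read in the library labelled VCaPENZR (6693-fold lower, interval 1201 to 264390), in the same library in which the desmocollins were at few or no reads. DSP (desmoplakin), chosen after its values were seen, was at 77.8 and 237, and CTNND2 was at 88.2 in VCaP and had 1 read. VANGL2, a polarity partner of the CELSR proteins, had no read in C4-2B and was at 11.0 and 12.6 in C4-2BENZR, at least 75.9-fold higher. VANGL2 passed the filter only through C4-2BENZR and so had to differ in order to be tested. FZD3 of the same list fell from 44.3 and 45.1 to 24.5 and 22.8 (-0.89, limma adjusted p = 5.52e-07), and OVOL1, an epithelial activator, fell from 18.3 and 19.4 to 10.9 and 12.0 (-0.67, limma adjusted p = 0.000376). Of the other epithelial activators, GRHL1 was also called lower in C4-2BENZR, GRHL2, OVOL2 and ELF3 were called higher, and GRHL3 was not tested. LIX1L, of the FAT and DCHS list, was at 93.8 in CWR-R1 against 7.57 in CWR-R1ENZR, and at 27.7 in VCaP and 2.86 in the library labelled VCaPENZR. In C4-2B it went the other way, from 18.0 and 14.9 to 38.7 and 38.3 in C4-2BENZR (log2 difference 1.18, limma adjusted p = 1.73e-07).

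The regulators of the clustered arrays, CTCF, RAD21, SMC3, SMCHD1 and WIZ, were all under 2-fold in CWR-R1 and VCaP. In C4-2B, SMC3 rose and RAD21 and WIZ fell, WIZ from 133 and 128 to 82.2 and 86.2 (-0.62, limma adjusted p = 2.75e-07), and CTCF was not called (limma adjusted p = 0.160). CTCF, which organises the loops that choose a clustered promoter, was at 96.6 in CWR-R1 against 77.3 in CWR-R1ENZR, and at 80.7 in VCaP and 64.4 in the library labelled VCaPENZR. Their part in the clustered protocadherin differences was not tested.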

How the data were processed

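Polyadenylated RNA of 8 libraries was sequenced as paired ends after column purification and DNase treatment, per the labels' protocols. The build is hg19 in the submitters' processing notes; the aligner and the counter are not given here by any source. For each line pair the authors deposited 1 table with a signal column for each library, which holds read counts scaled by library size: within 0.02 reads, 100% of the values were whole multiples of 1 read. The authors' deposited p-value, false discovery rate and fold columns were not used.

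For C4-2B, limma 3.58.1 was fitted to log2(value + 1) for genes that reached 1 in 2 or more libraries (trend, two-sided, Benjamini-Hochberg adjustment over 13280 genes, threshold 0.05). edgeR 4.0.16 on the recovered reads called 7522 genes, against 7547 with limma. DESeq2 1.42.0 was another alternative. For CWR-R1 and VCaP, log2 ratios of value + 1 had no test, and 95% intervals of a ratio are exact binomial (Clopper-Pearson) from recovered reads. Intervals and the floor of 3 reads cover counting error only, since reads are not independent molecules. The limma fit was tested on simulated data.

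Named members were CDH1, PCDH7, PCDH20, CDH2, CDH3 and CDH11, members with a level of at least 5 and a 2-fold difference (called by limma in C4-2B), and the 3 highest of each table. Named partner genes were the 2 of largest ratio up and down per table; other names were chosen after their values were seen. The members, gene lists and alternatives were chosen with earlier results of these data known. Alternatives were other scalings, pseudocounts, filters, thresholds, tests, a replicate block and each C4-2B library left out. Gene order and promoters are from RefSeq, GRCh38.p14, and hg19 coordinates were not used.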

Additional observations from a re-analysis of the deposited data

Results flagged for a closer look

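6 members went in opposite directions in 2 line pairs, each called in C4-2B or at least 2-fold different in the others. None of these differences between pairs was tested, because CWR-R1 and VCaP have 1 library per form. The share of all genes that went in opposite directions was not counted. Of all genes, 56.8% were called in C4-2B, and 20.1% in CWR-R1 and 43.1% in VCaP differed by at least 2-fold. PCDH7 differed by -9.85 on the log2 scale between the C4-2B pair (-5.83) and the VCaP pair (4.02), and PCDH20 by -8.07 (-4.54 and 3.53); both values of the VCaP pair rest on the library labelled VCaPENZR. PCDH1 differed by -2.85 between the C4-2B pair (-0.66) and the CWR-R1 pair (2.19). Between the CWR-R1 and VCaP pairs, CELSR3 differed by 2.33 (1.03 and -1.31), PCDHB16 by 3.74 (2.38 and -1.35) and PCDHGB4 by 4.95 (1.68 and -3.27). PCDHB16 and PCDHGB4 are clustered members whose reads can be credited to a neighbouring copy. The VCaP values of CELSR3, PCDHB16 and PCDHGB4 also rest on the library labelled VCaPENZR.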

How the results depend on the processing

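In C4-2B, the count of 7 members higher was 4 with a filter of at least 5 in 2 libraries and 3 to 7 when 1 library was left out (3 without C4-2BENZR replicate 1, 4 without replicate 2). PCDH19, PCDHB2 and PCDHGB5 were no longer tested in these settings, and CELSR1 and CDH15 lost their calls without C4-2BENZR replicate 1, CDH15 also without C4-2B replicate 2. The count of 7 lower was 6 to 7 when 1 library was left out, with FAT1 called in place of CDH15 without C4-2BENZR replicate 1 and without C4-2B replicate 2; PCDH20 was not tested without either C4-2B library. The 14 calls were the same genes with edgeR, DESeq2, median-of-ratios size factors and both other pseudocounts. PCDH7 had the larger log2 difference in C4-2B with pseudocounts of 1 and 4, and PCDH20 with a pseudocount of 0.25 (-6.27 against -6.13), edgeR (-8.13 against -6.24) and DESeq2 (-8.25 against -6.25). With total counts only, CDH3 was called as well, the median of all genes moved to 0.10 and the split of calls was 4757 higher and 2923 lower, against 3691 and 3856. CLSTN1, called in no setting, changed from -0.011 to 0.091 with total listed counts only and ranged from -0.042 to 0.020 when 1 library was left out (0.020 without C4-2BENZR replicate 2 and 0.010 leaving out C4-2B replicate 1). In CWR-R1 the 6 members lower became 11 at 1.5-fold, and the 23 higher became 10 at 4-fold. The counts in VCaP stayed within 1.5 times under every alternative run.

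The labels do not say what libraries of the same replicate number share, and the main fit did not pair them. The deviations of same-numbered libraries correlated at 0.05, which cannot show whether they were paired. With a replicate block, 7 members were higher and 8 lower (FAT1 added) and 8248 genes were called in all. Depth limits the members near 0: a level under 0.142 to 0.202 lies below 3 reads.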
